A study of Homo sapiens with 9 samples.

Results

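The heat shock response genes examined here were 10 genes taken by symbol: HSPA1A, HSPA1B, HSPA8, HSP90AA1, HSPH1, DNAJB1, HSPB1, BAG3, HSPD1 and HSPE1. All of them were among the 26475 symbols of the count table, and all passed the filter on low counts that left 16417 genes for testing. They were followed across A375 cells, an established human melanoma line with a mutation in BRAF, that had been treated for 24 h with the solvent DMSO, with 5 µM TP-472 or with 10 µM TP-472. TP-472 is a chemical probe against the acetyl-lysine reading bromodomains of BRD9 and BRD7, which are subunits of SWI/SNF chromatin remodelling complexes. Each of the 3 groups had 3 libraries, described as biological replicates, and all 9 came from this 1 cell line. The values are expected counts, in which reads that match several genes are divided between them by estimation, and they are given as CPM (counts scaled to a fixed library total) after TMM scaling of the library sizes.

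Molecular chaperones bind unfolded proteins, keep them from aggregating and help them to fold. When unfolded proteins accumulate, the transcription factor HSF1 is released from chaperones, forms trimers and binds heat shock elements, which are inverted repeats of the letters GAA, in the promoters of chaperone genes. HSP70 proteins (HSPA1A, HSPA1B and the constitutive HSPA8) work in a cycle with J-domain proteins such as DNAJB1, which deliver clients, and with nucleotide exchange factors such as HSPH1 and BAG3, which release them. HSP90AA1 is the stress-inducible cytosolic HSP90, HSPB1 is a small heat shock protein that holds unfolded clients without ATP, and HSPD1 with its lid HSPE1 forms the folding chamber of the mitochondrial matrix. Tumour cells, melanoma included, are known to hold many of these chaperones at high levels without heat.

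With TP-472 treatment, the 10 genes did not move in one direction. In the edgeR fit of all 9 libraries, at 5 µM, HSPA8 was upregulated to 1.36 times and HSPA1B to 1.32 times its DMSO level. That fit called 0 members lower at 5 µM, where DESeq2 called HSPB1 lower and the edgeR fit without 10 µM replicate 1 called HSPB1 and BAG3 lower. At 10 µM, HSP90AA1 was upregulated to 1.37 times its DMSO level and HSPH1 was also called higher, whereas BAG3 was downregulated to 0.760 times and HSPB1 to 0.679 times. Between the doses, HSP90AA1 was higher and HSPA8 lower at 10 µM. With all libraries, 4.40% of all tested genes were called higher and 5.81% lower at 5 µM, and 16.4% and 18.0% at 10 µM. Between the doses these shares were 2.87% and 5.53%. In the fit of all libraries no member's estimate reached 1.5-fold in the 3 comparisons, while HSPB1 at 10 µM did so with limma-voom (log2 fold change -0.60) and without 10 µM replicate 1 (-0.82). As these are bulk samples, fewer cells that express a gene and less RNA per cell cannot be told apart.

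The libraries held between 42483091 and 51298130 expected counts, and ribosomal RNA genes took 8.20% to 19.9% of them. One 10 µM library, replicate 1, differed from replicates 2 and 3 in a way that followed transcript length. Its CPM relative to the mean of replicates 2 and 3 had a median of 1.57 over 486 genes with transcripts under 1 kb, 1.21 over 4810 genes of 1 to 3 kb and 0.843 over 6999 genes of 3 kb or more. HSPE1 (950 bases) and HSPB1 (909 bases), the shortest members, had ratios of 1.67 and 1.58, and HSPH1 (5191 bases), the longest, had 0.819. HSP90AA1 (3510 bases) did not follow its length class and had 1.12. The remaining members, all of 1 to 3 kb, ran from 1.01 (BAG3) to 1.19 (HSPA1A). Results are therefore given with all libraries and, for many but not all of them, also without this library. Unless another fit is named, a value is from all 9 libraries. The summed HSPA1A and HSPA1B were not refitted without it. Of 13 marker genes of melanoma lines, 9 averaged at least 1 CPM over the 9 libraries, with SOX10 at a mean of 417 CPM in DMSO, but TYR was listed at 0 in every library and DCT stayed at or below 0.0192 CPM. Their summed level ran from 1423 to 1435 CPM under DMSO, from 1118 to 1149 with 5 µM and from 1038 to 1117 with 10 µM. Of 5 keratinocyte markers 2 (KRT10 and KRT14) did so, with sums of 49.4 to 56.7 CPM under DMSO, 62.2 to 65.9 with 5 µM and 67.1 to 97.7 with 10 µM. The 7 leukocyte and endothelial markers summed to at most 4.71 CPM in any library, with CD3E listed at 0.

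Heat shock elements were searched for in the promoters because they are the sequences through which HSF1 acts on these genes. The windows ran from 250 bases before to 50 bases after each RefSeq start on GRCh38.p14, and the 10 genes had 14 of them. An element of 3 inverted units (GAANNTTCNNGAA or TTCNNGAANNTTC, which are each other's opposite strand) was present in 3 of the 14 windows, those of HSPA8, HSP90AA1 and HSPD1, and in 172 of all 35116 promoters of the same length (0.490%). The shorter form of 2 units (GAANNTTC or TTCNNGAA), which the longer one contains, was present in 8 of the 14 windows and in 13.5% of all promoters. The matches are printed 5′ to 3′ on the strand of the gene, with the element in capitals, since the genes that carry them are HSPA8 and HSP90AA1, which were each called in 2 of the 3 comparisons in the fit of all libraries, and HSPD1, which was called in none of them there.
HSPA8, chr11:123062348-123062372, minus strand, element beginning 230 bases before the start: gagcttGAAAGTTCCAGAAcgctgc
HSPA8, chr11:123062173-123062197, minus strand, element beginning 55 bases before the start: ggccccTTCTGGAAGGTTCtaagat
HSP90AA1, chr14:102087114-102087138, minus strand, element beginning 88 bases before the start: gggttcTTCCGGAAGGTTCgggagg
HSPD1, chr2:197500062-197500090, minus strand, overlapping elements beginning 245 bases before the start: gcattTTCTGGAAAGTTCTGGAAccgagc
The capitals of HSPD1 hold 18 bases, 4 units in a row that were counted as overlapping elements. Each stretch lies within an exon of some transcript of the named gene in GENCODE release 29, and the HSPD1 stretch also lies within an exon of HSPE1 on the other strand. A match is a description of the letters, and binding of HSF1 was not measured. Only exact units at this spacing inside these windows were searched for. Elements with a changed letter, or lying elsewhere, would be missed, so members without a match may still carry one. Whether a match goes with a call was not tested.

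In DMSO the levels of the 10 genes spanned more than an order of magnitude. On the scale of CPM per kb of transcript, HSPA8 had the highest level (575), followed by HSP90AA1 (524), HSPD1 (292), HSPB1 (193), HSPE1 (160), DNAJB1 (80.0), HSPH1 (79.3), BAG3 (49.6), HSPA1A (48.7) and HSPA1B (34.0). The ranges of the 3 DMSO libraries overlapped between neighbours in this order only for DNAJB1 and HSPH1. The order also rests on the length of the transcript chosen for each gene. For HSPA1A and HSPA1B it rests on the estimated division of reads as well, and the ranges measure neither. At 10 µM the first place changed hands, with HSP90AA1 at 717 and HSPA8 at 644 CPM per kb. The summed level of all 10 members ran from 5180 to 5264 CPM under DMSO and from 5965 to 6060 with 5 µM, and was 6454, 5787 and 6015 with 10 µM, so their sum took a larger share of the counts in every treated library than in any DMSO library. The sum mainly follows its 2 most abundant genes. From DMSO to 5 µM and 10 µM, HSP90AA1 averaged 1839, 2032 and 2517 CPM and HSPA8 1415, 1926 and 1585. The means of HSPB1, BAG3 and HSPD1 fell at both doses.

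**Figure D1:**
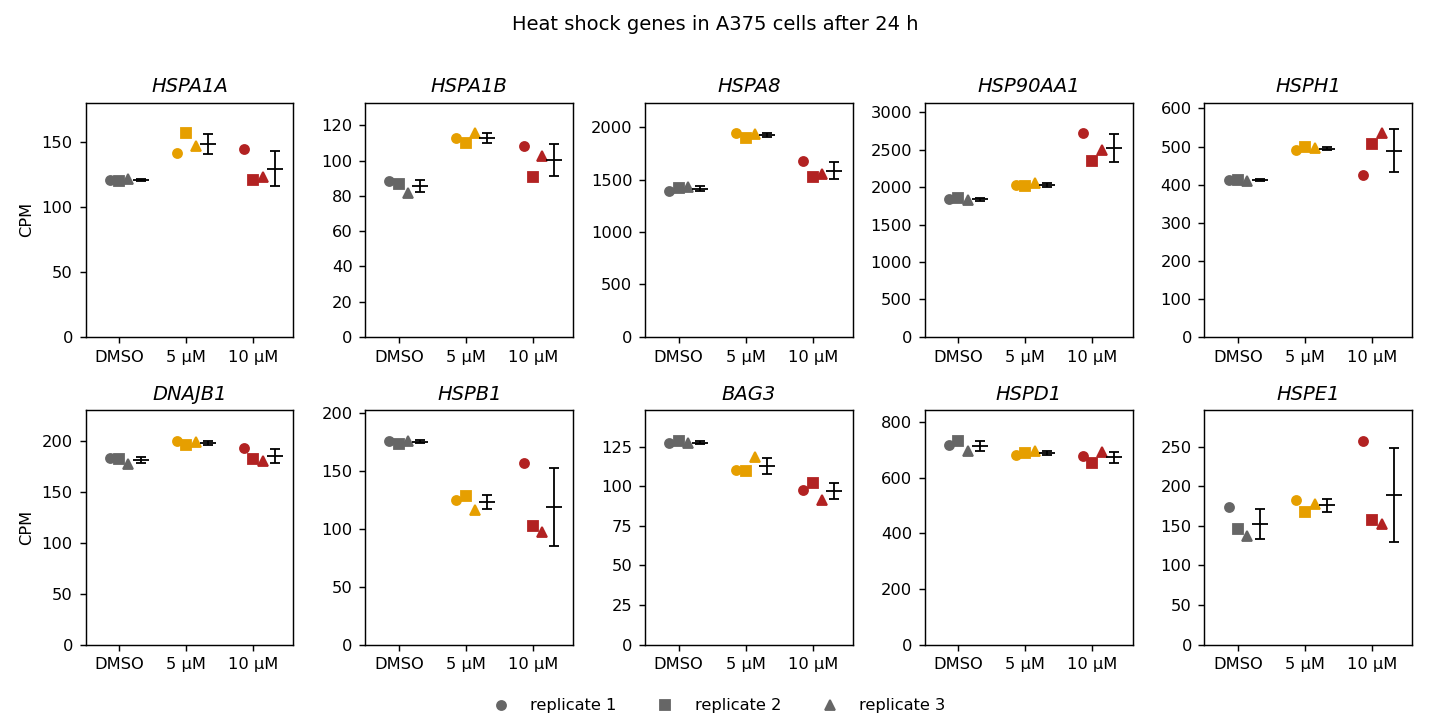
CPM of each heat shock gene (y axis, from 0) in the 9 libraries by treatment (x axis), with circles, squares and triangles for replicates 1, 2 and 3 and black marks for the mean ± SD of 3 libraries. HSPA8 peaks at 5 µM, HSP90AA1 is highest at 10 µM, and 10 µM replicate 1 lies far above the other 10 µM libraries for HSPE1 and HSPB1.

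In the fit of all 9 libraries (edgeR quasi-likelihood test, Benjamini-Hochberg adjusted p under 0.05), 2 of 10 members were called higher and 0 lower at 5 µM, where 4.40% of all tested genes were called higher and 5.81% lower. At an unadjusted p under 0.05 the counts were 5 higher and 2 lower, without a count over all genes to set beside them. DESeq2 called 4 members higher and 1 lower, beside 1217 and 1463 of the 16417 genes tested. With limma-voom 2 members were higher and 0 lower, beside 603 and 1044 genes. At 10 µM against DMSO, 2 members were called higher and 2 lower, beside 16.4% and 18.0% of all genes. At 10 µM against 5 µM, 1 member was called higher and 1 lower, beside 2.87% and 5.53% of all genes. With a fold change of at least 1.5 added, 0 members were called in any comparison by edgeR or DESeq2 with all libraries, 1 (HSPB1 at 10 µM) by limma-voom and the same 1 by edgeR without 10 µM replicate 1, while 2.14% of all genes were called higher and 2.72% lower at 5 µM, 8.57% and 10.5% at 10 µM, and 1.42% and 2.59% between the doses. With edgeR and all libraries the count stayed at 0 at an unadjusted p under 0.05, since no member's estimate reached that fold.

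The counts depended on which libraries shared the estimate of the spread. When 10 µM replicate 1 was left out, 7 members were called higher and 2 lower at 5 µM, all except HSPD1, beside 16.5% and 17.6% of all genes. The fit of only the DMSO and 5 µM libraries gave the same counts, beside 19.3% and 20.7% of all genes. The fold changes at 5 µM stayed nearly where they were and the intervals narrowed, as shown by the plot of the 3 fits. At 10 µM against DMSO the fit without that library called 4 members higher (HSPA1B, HSPA8, HSP90AA1 and HSPH1) and 3 lower (HSPB1, BAG3 and HSPD1), beside 23.0% and 25.8% of all genes. At 10 µM against 5 µM it called HSP90AA1 higher and 6 members lower (HSPA1A, HSPA1B, HSPA8, DNAJB1, HSPB1 and BAG3), beside 8.80% and 15.4% of all genes. Leaving out any 1 of the 3 DMSO libraries, or 5 µM replicate 1 or 3, left HSPA8 as the 1 member called at 5 µM. Leaving out any DMSO library or 10 µM replicate 3 left 2 members called at 10 µM, HSP90AA1 and BAG3. Leaving out any 5 µM library left 0 members called between the doses, where 3 or 4 of them had an unadjusted p under 0.05 with edgeR.

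**Figure D2:**
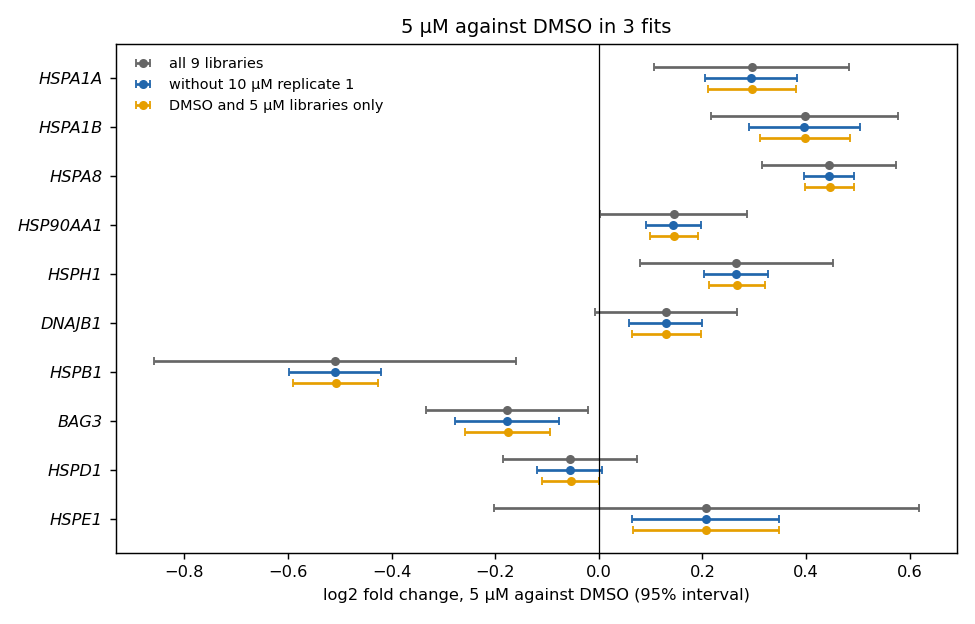
Log2 fold change at 5 µM against DMSO (x axis) for each gene, with 95% confidence intervals, from all 9 libraries (grey), without 10 µM replicate 1 (blue) and from the DMSO and 5 µM libraries alone (orange). The points coincide, and the intervals of 7 genes lie above 0 and of 2 genes below 0 in the blue and orange fits.

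By range alone, the 3 libraries at 5 µM all lay above the 3 DMSO libraries for 6 members (HSPA1A, HSPA1B, HSPA8, HSP90AA1, HSPH1 and DNAJB1), beside 23.7% of all tested genes, and all below for 3 (HSPB1, BAG3 and HSPD1), beside 25.0%. At 10 µM against DMSO the members were 4 above (HSPA1B, HSPA8, HSP90AA1 and HSPH1), beside 23.4%, and 3 below (HSPB1, BAG3 and HSPD1), beside 26.0%. Between the doses 1 member lay wholly above at 10 µM (HSP90AA1), beside 12.1%, and 4 wholly below (HSPA1B, HSPA8, DNAJB1 and BAG3), beside 16.2%.

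HSPA8, the constitutive cytosolic HSP70 that folds new proteins and uncoats clathrin vesicles, gave the clearest response at the lower dose. Its gene lies on the minus strand at chr11:123057489-123063230 (GRCh38), with 9 exons in the transcript used. It was at 1393, 1422 and 1430 CPM in DMSO, 1941, 1901 and 1936 CPM at 5 µM and 1676, 1527 and 1553 CPM at 10 µM. All treated libraries were above all DMSO libraries, and all 5 µM libraries were above all 10 µM libraries. Its log2 fold change was 0.44 ± 0.06 (SE) at 5 µM (95% interval 0.31 to 0.57, adjusted p = 0.00133) and 0.16 ± 0.06 at 10 µM, which missed the threshold (adjusted p = 0.0528). With DESeq2-type or upper-quartile factors, ribosomal RNA genes left out, the filter of 1 CPM in 3 libraries, or DESeq2, both HSPA8 and HSPA1B were called higher at 10 µM, with adjusted p-values from 0.00597 to 0.0418, which made the number of members higher 4 in place of 2. The level at 10 µM was below that at 5 µM by a log2 difference of -0.28 ± 0.06 (adjusted p = 0.0177). In the fit without 10 µM replicate 1 the change at 10 µM against DMSO was 0.12 and passed the test (adjusted p = 0.00103), and the difference between doses was -0.32. The snoRNAs SNORD14C and SNORD14D overlap 3.61% of its exonic bases on the same strand.

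HSPA1A and HSPA1B encode the stress-inducible HSP70, the protein most commonly used as a readout of the heat shock response. They are single-exon genes on the plus strand at chr6:31815464-31817946 and chr6:31827735-31830255, and their starts are 12271 bases apart. Of the 100-base words of their transcripts, 69.9% of those of HSPA1A occur in HSPA1B and 68.8% of those of HSPA1B in HSPA1A, so the division of reads between them is uncertain. HSPA1A was at 121, 120 and 122 CPM in DMSO, 141, 157 and 147 CPM at 5 µM and 145, 121 and 123 CPM at 10 µM. The 5 µM libraries lay above DMSO, and 10 µM replicates 2 and 3 lay within or just above the DMSO range. HSPA1B was at 88.6, 86.5 and 81.9 CPM in DMSO, 113, 110 and 115 CPM at 5 µM and 108, 90.6 and 102 CPM at 10 µM.

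HSPA1B changed by a log2 fold change of 0.40 ± 0.08 at 5 µM (adjusted p = 0.0128), and that of HSPA1A was 0.29 ± 0.08 and missed the threshold (adjusted p = 0.0537). At 10 µM they were 0.23 ± 0.08 (adjusted p = 0.0514) and 0.10 ± 0.08 (adjusted p = 0.404). The call of HSPA1B at 5 µM was lost without any 1 of the DMSO libraries or without 5 µM replicate 1 or 3. Added together, which removes the question of how reads were divided, the pair was at 209.7, 206.7 and 203.7 CPM in DMSO, 254.3, 266.9 and 262.7 CPM at 5 µM and 253.1, 211.3 and 225.7 CPM at 10 µM. The sum rose by a log2 fold change of 0.34 ± 0.08 at 5 µM (adjusted p = 0.0212), and at 10 µM its difference from DMSO was 0.15 ± 0.08 (95% interval -0.02 to 0.32, adjusted p = 0.148). Every treated library lay above the DMSO libraries for the sum, and replicate 1 was the highest at 10 µM.

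HSP90AA1, the inducible cytosolic HSP90 that matures kinases such as RAF family members and steroid receptors, was the member with the largest rise at 10 µM. Its gene lies on the minus strand at chr14:102080738-102139699, and WDR20 on the other strand overlaps 3.75% of its exonic bases. It was at 1836, 1859 and 1822 CPM in DMSO, 2029, 2009 and 2059 CPM at 5 µM and 2715, 2346 and 2490 CPM at 10 µM, so the groups followed the dose without overlap. The log2 fold change was 0.14 ± 0.06 at 5 µM (adjusted p = 0.199), 0.45 ± 0.06 at 10 µM (adjusted p = 0.000517) and 0.31 ± 0.06 between the doses (adjusted p = 0.0176). With 10 µM replicate 1 left out these were 0.14 (adjusted p = 0.000323), 0.39 (adjusted p = 1.07e-08) and 0.25 (adjusted p = 8.05e-06). HSPA8 and HSP90AA1, the most abundant members, thus had opposite differences between the doses. Both calls between the doses were lost without any 1 of the 5 µM libraries. They were also lost in the edgeR fit of only the 5 µM and 10 µM libraries (adjusted p = 0.131 for HSPA8 and 0.0989 for HSP90AA1).

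HSPH1, an HSP110 protein that acts as a nucleotide exchange factor for HSP70, lies on the minus strand at chr13:31134974-31162388. It was at 413, 412 and 409.5 CPM in DMSO, 490.2, 498 and 496 CPM at 5 µM and 426, 506 and 535 CPM at 10 µM. Both doses lay above DMSO, and 10 µM replicate 1 was the lowest treated library. The log2 fold change was 0.27 ± 0.08 at 5 µM (adjusted p = 0.0753) and 0.25 ± 0.08 at 10 µM (adjusted p = 0.0429), and without 10 µM replicate 1 they were 0.26 (adjusted p = 4.45e-06) and 0.34 (adjusted p = 4.37e-07). The call at 10 µM was lost when any 1 of the other 8 libraries was left out (adjusted p from 0.0739 to 0.133), and also with no filter on low counts (0.0723) and in the fit of only the DMSO and 10 µM libraries (0.103). The difference between the doses was -0.02 in the fit of all libraries (adjusted p = 0.919).

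DNAJB1, the HSP40 that activates HSP70 and also returns HSF1 to its inactive state, lies on the minus strand at chr19:14514770-14529770, and TECR and MIR639 on the other strand overlap 8.42% of its exonic bases. It was at 184, 182 and 178 CPM in DMSO, 199.8, 196 and 198 CPM at 5 µM and 193, 182 and 180.3 CPM at 10 µM. The 5 µM libraries lay above DMSO by a small step and the 10 µM libraries overlapped DMSO. Its log2 fold change was 0.13 ± 0.06 at 5 µM (95% interval -0.01 to 0.27, adjusted p = 0.233) and 0.03 ± 0.06 at 10 µM (95% interval -0.10 to 0.17, adjusted p = 0.723). Leaving out 10 µM replicate 1 kept the 5 µM value the same, 0.13, and passed the test (adjusted p = 0.00665).

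BAG3, the exchange factor that links HSP70 to small heat shock proteins and to selective autophagy, fell at 10 µM. Its gene lies on the plus strand at chr10:119651370-119677819. It was at 127, 129 and 127 CPM in DMSO, 110.4, 109.7 and 119 CPM at 5 µM and 97.3, 102 and 91.5 CPM at 10 µM, with no overlap between any groups. The log2 fold change was -0.18 ± 0.07 at 5 µM (adjusted p = 0.150) and -0.40 ± 0.07 at 10 µM (95% interval -0.55 to -0.24, adjusted p = 0.00195). The 10 µM value was called in every alternative fit, with adjusted p-values up to 0.0129, and its replicate 1 lay between the other replicates.

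HSPB1, known as HSP27, was lower at both doses in all libraries. Its gene lies on the plus strand at chr7:76302544-76304295. It was at 176, 174 and 176 CPM in DMSO, 125, 128 and 117 CPM at 5 µM and 157, 102 and 97.1 CPM at 10 µM. The DMSO libraries were close together, and 10 µM replicate 1 lay between them and every other treated library. The log2 fold change was -0.51 ± 0.16 at 5 µM (95% interval -0.86 to -0.16, adjusted p = 0.0703) and -0.56 ± 0.16 at 10 µM (adjusted p = 0.0203). The call at 10 µM was lost without any 1 of the DMSO libraries or without 10 µM replicate 2 or 3 (adjusted p from 0.0545 to 0.0617), and in the fit of only the DMSO and 10 µM libraries (0.0613). With 10 µM replicate 1 left out these were -0.51 (adjusted p = 1.91e-07) and -0.82 (adjusted p = 1.41e-09). The log2 difference between 10 µM and 5 µM was -0.31 without it (adjusted p = 0.000226) and -0.05 with it (adjusted p = 0.870).

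The mitochondrial pair showed no called change in the fit of all libraries. HSPD1 lies on the minus strand at chr2:197486581-197516737 and HSPE1 on the plus strand at chr2:197499994-197503457, and their annotated exons overlap on opposite strands. HSPD1 was at 717, 733 and 698 CPM in DMSO, 683, 689 and 695 CPM at 5 µM and 679, 652 and 692 CPM at 10 µM. Its log2 fold change was -0.06 ± 0.06 at 5 µM (95% interval -0.18 to 0.07, adjusted p = 0.645) and -0.09 ± 0.06 at 10 µM (95% interval -0.22 to 0.04, adjusted p = 0.284). In the fit without 10 µM replicate 1 the 10 µM value was also -0.09 and passed the test (adjusted p = 0.0277).

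HSPE1 was at 174, 146 and 137 CPM in DMSO, 183, 167 and 178 CPM at 5 µM and 257, 157 and 152 CPM at 10 µM. The groups overlapped, and 10 µM replicate 1 was the highest library. Its log2 fold change was 0.21 ± 0.18 at 5 µM (95% interval -0.20 to 0.62, adjusted p = 0.568) and 0.31 ± 0.18 at 10 µM (95% interval -0.10 to 0.72, adjusted p = 0.229), the widest intervals among the members. The fit without that library gave 0.21 (adjusted p = 0.0252) and 0.02 (adjusted p = 0.882). The overlap of exons took 6.62% of the exonic bases of HSPD1, and HSPE1 shared 23.9% of its own with HSPD1 or with the read-through gene HSPE1-MOB4, which stayed at or below 2.13 CPM.

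**Figure D3:**
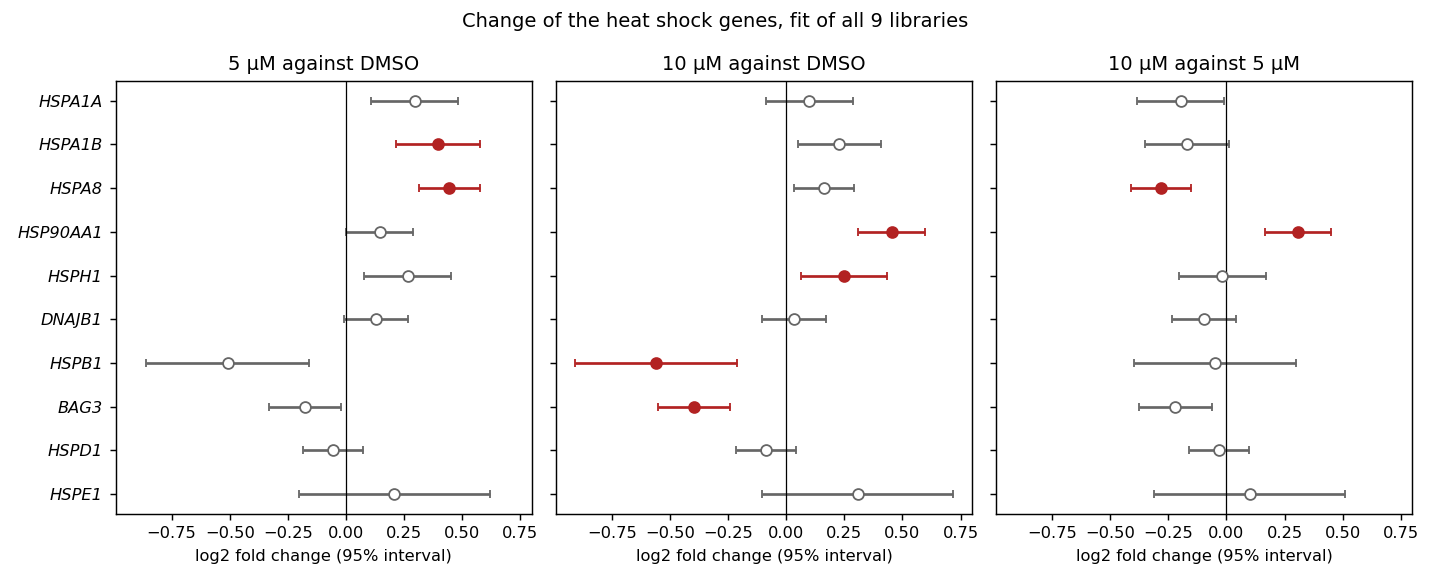
Log2 fold change with its 95% confidence interval (x axis) of each heat shock gene in the 3 comparisons, from the fit of all 9 libraries, with filled red points for genes called at an adjusted p under 0.05. HSPA8 and HSPA1B are called at 5 µM, HSP90AA1, HSPH1, HSPB1 and BAG3 at 10 µM, and HSP90AA1 and HSPA8 between the doses.

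Of the heat shock factors and their partners, edgeR, DESeq2 and limma-voom called 0 of 5 tested genes at 5 µM, also 0 at an unadjusted p under 0.05. The edgeR fit without 10 µM replicate 1 called HSBP1 higher (log2 fold change 0.20, adjusted p = 0.00114) and HSF1 lower (-0.15, adjusted p = 0.0446) at 5 µM. At 10 µM it called 2 higher and 1 lower. Of all tested genes that fit called 16.5% higher and 17.6% lower at 5 µM, and 23.0% and 25.8% at 10 µM. With all libraries these shares were 4.40%, 5.81%, 16.4% and 18.0%. HSF1 averaged 100.2 ± 2.39 CPM under DMSO, 90.4 ± 0.565 with 5 µM and 90.8 ± 13.7 with 10 µM (SD, n = 3), with log2 fold changes of -0.15 (adjusted p = 0.430) and -0.14 (adjusted p = 0.311). The value at 10 µM without replicate 1 was -0.26 and passed the test (adjusted p = 0.00257). HSF2 was at a mean of 17.9, 16.2 and 14.7 CPM and was not called. HSBP1, which binds HSF1 trimers, was the 1 called among them at 10 µM with all libraries, from 135 CPM in DMSO to 222, 169 and 162 CPM (log2 fold change 0.45, adjusted p = 0.0108; 0.29 without replicate 1). Over the list the median at 10 µM was 0.22 with all libraries and -0.05 without replicate 1. HSPA6, an HSP70 that is nearly silent without strong stress, was at 1.41, 1.23 and 0.969 CPM in DMSO, 1.47, 2.46 and 1.33 CPM at 5 µM and 2.25, 1.48 and 1.69 CPM at 10 µM, and was not called (adjusted p = 0.361 and 0.199).

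Counts in the lists that follow are read beside the shares of all tested genes called, 4.40% higher and 5.81% lower at 5 µM and 16.4% and 18.0% at 10 µM with all libraries, and 16.5%, 17.6%, 23.0% and 25.8% in the same order without 10 µM replicate 1. Of 20 other genes that HSF1 is known to induce, 4 were called higher and 1 lower at 5 µM, and 10 higher and 1 lower at 10 µM, with median log2 fold changes of 0.16 and 0.27 beside 0.0054 and 0.011 over all genes tested. When 10 µM replicate 1 was left out, 10 were higher and 1 lower at 5 µM, and 12 higher and 1 lower at 10 µM. HSPB8, a partner of BAG3 and the 1 called gene among 2 tested of 8 other small heat shock proteins, rose from a mean of 10.9 CPM under DMSO to 18.5 with 5 µM and 28.6 with 10 µM, by log2 fold changes of 0.76 (adjusted p = 0.00171) and 1.39 (adjusted p = 9.76e-06), whereas BAG3 and HSPB1 fell at 10 µM. IER5, which binds HSF1 and raises its activity, rose from 79.6 to 119 and 149 CPM (log2 fold change 0.91 at 10 µM, adjusted p = 4.38e-05). ZFAND2A, a proteasome partner, rose from 11.8 to 19.8 CPM at 10 µM (log2 fold change 0.75, adjusted p = 0.00135). SERPINH1, the collagen chaperone HSP47, was the 1 that fell, from 142 CPM in DMSO to 110 and 80.0 CPM, by log2 changes of -0.36 (adjusted p = 0.0188) and -0.83 (adjusted p = 5.10e-05).

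Of 12 other HSP70 family genes tested, 1 (8.33%) was called higher at 5 µM and 5 (41.7%) at 10 µM, beside 4.40% and 16.4% of all genes, with 0 lower in either (also 0 at an unadjusted p under 0.05, with DESeq2 and with limma-voom), and the numbers higher without 10 µM replicate 1 were 6 at both doses, with 1 lower at 5 µM. HSPA4L, an HSP110 relative of HSPH1, rose from 10.9 CPM to 19.7 with 5 µM and 17.9 with 10 µM (log2 fold changes 0.85 and 0.72, adjusted p = 0.00885 and 0.00675). HSPA14 and HSPA4 rose by smaller steps at 10 µM, to log2 fold changes of 0.29 (adjusted p = 0.0279) and 0.23 (adjusted p = 0.0442). Of 3 other HSP90 genes, 1 was called lower at 10 µM and 2 without 10 µM replicate 1. HSP90B1, the HSP90 of the endoplasmic reticulum, fell at 10 µM, from 1092 CPM in DMSO to 919 and 768 CPM (log2 fold change -0.51, adjusted p = 0.000445), the opposite direction to HSP90AA1.

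Of 13 other J-domain genes tested, 2 (15.4%) were called higher at 5 µM and 7 (53.8%) at 10 µM, beside 4.40% and 16.4% of all genes, with 0 lower by edgeR (also at an unadjusted p under 0.05), DESeq2 or limma-voom. Leaving out 10 µM replicate 1 made the number higher 7 at both doses, beside 16.5% and 23.0% of all genes. DNAJB9, an ER J-domain protein, rose from 16.6 to 22.7 and 33.9 CPM (log2 fold change 1.03 at 10 µM, adjusted p = 1.13e-05). DNAJB2, which targets clients for degradation, rose from 39.3 to 65.1 CPM at 10 µM (log2 fold change 0.73, adjusted p = 0.00135). DNAJB4, a close relative of DNAJB1, rose from 14.8 to 20.5 CPM at 10 µM (log2 fold change 0.47, adjusted p = 0.0121), whereas DNAJB1 itself was not called.

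Among 9 other BAG and exchange factors, BAG1 and GRPEL2 were called higher and BAG6 lower at 10 µM, while edgeR, DESeq2 and limma-voom called 0 at 5 µM, where 1 was higher at an unadjusted p under 0.05 and the fit without 10 µM replicate 1 called 1 higher and 1 lower. BAG1 was at a mean of 52.5 CPM in DMSO and at 95.1, 66.3 and 62.5 CPM at 10 µM, with replicate 1 far above the others (log2 fold change 0.51, and 0.29 without that library). Of 18 co-chaperones of HSP70 and HSP90, edgeR and limma-voom called 0 at 5 µM and DESeq2 called 1 higher and 1 lower. At an unadjusted p under 0.05, 3 were higher and 1 lower, and without 10 µM replicate 1, 6 were called higher and 2 lower. At 10 µM, 6 were higher and 1 lower with all libraries, 8 and 1 with DESeq2, and 9 and 3 without 10 µM replicate 1. TTC4, CDC37L1 and CHORDC1, all HSP90 partners, rose by log2 fold changes of 0.63 (adjusted p = 0.000741), 0.54 (adjusted p = 0.000335) and 0.51 (adjusted p = 0.000969), and ST13, which stabilises HSP70 in its ADP state, fell by 0.29 on the log2 scale (adjusted p = 0.00567).

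Among lists for other complexes and compartments, the mitochondrial and ER lists held calls in both directions. The chaperonin and prefoldin list held only higher calls. Of 14 subunits of the cytosolic chaperonin and prefoldin, CCT3 and VBP1 were called higher at 10 µM (log2 fold changes 0.30 and 0.27, and 0.16 and 0.24 without 10 µM replicate 1) and edgeR, DESeq2 and limma-voom called 0 at 5 µM, also 0 at an unadjusted p under 0.05. Without 10 µM replicate 1, 5 were called higher at 10 µM and 3 at 5 µM. Of 13 other mitochondrial chaperones and proteases, 6 were higher and 1 lower at 10 µM, with HSCB at 0.71 (adjusted p = 0.0415; 0.38 and adjusted p = 0.0631 without 10 µM replicate 1), HTRA2 at 0.37 (adjusted p = 0.0242; 0.23 without it) and LONP1, a matrix protease, at -0.32 (adjusted p = 0.00958). At 5 µM edgeR and limma-voom called 0 of them and DESeq2 1 lower, with 2 higher and 2 lower at an unadjusted p under 0.05, and the fit without 10 µM replicate 1 called 5 higher and 2 lower at 5 µM and 7 higher and 2 lower at 10 µM. Of 15 ER chaperones, 1 was higher and 1 lower at 5 µM and 4 were higher and 4 lower at 10 µM (26.7% each), beside 16.4% and 18.0% of all genes, against 9 and 5 at 5 µM and 8 and 5 at 10 µM without 10 µM replicate 1. At 10 µM, DNAJB9, SDF2L1 (0.59, adjusted p = 0.0470; 0.26 without replicate 1) and DNAJB11 (0.44, adjusted p = 0.00335) were among those higher and HSP90B1, PDIA4 (-0.30, adjusted p = 0.00386) and PDIA6 (-0.29, adjusted p = 0.00592) among those lower. The medians of these 3 lists at 10 µM were 0.17, 0.20 and 0.19, and 0.079, 0.16 and 0.097 without 10 µM replicate 1. Some genes stand in more than 1 list.

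**Figure D4:**
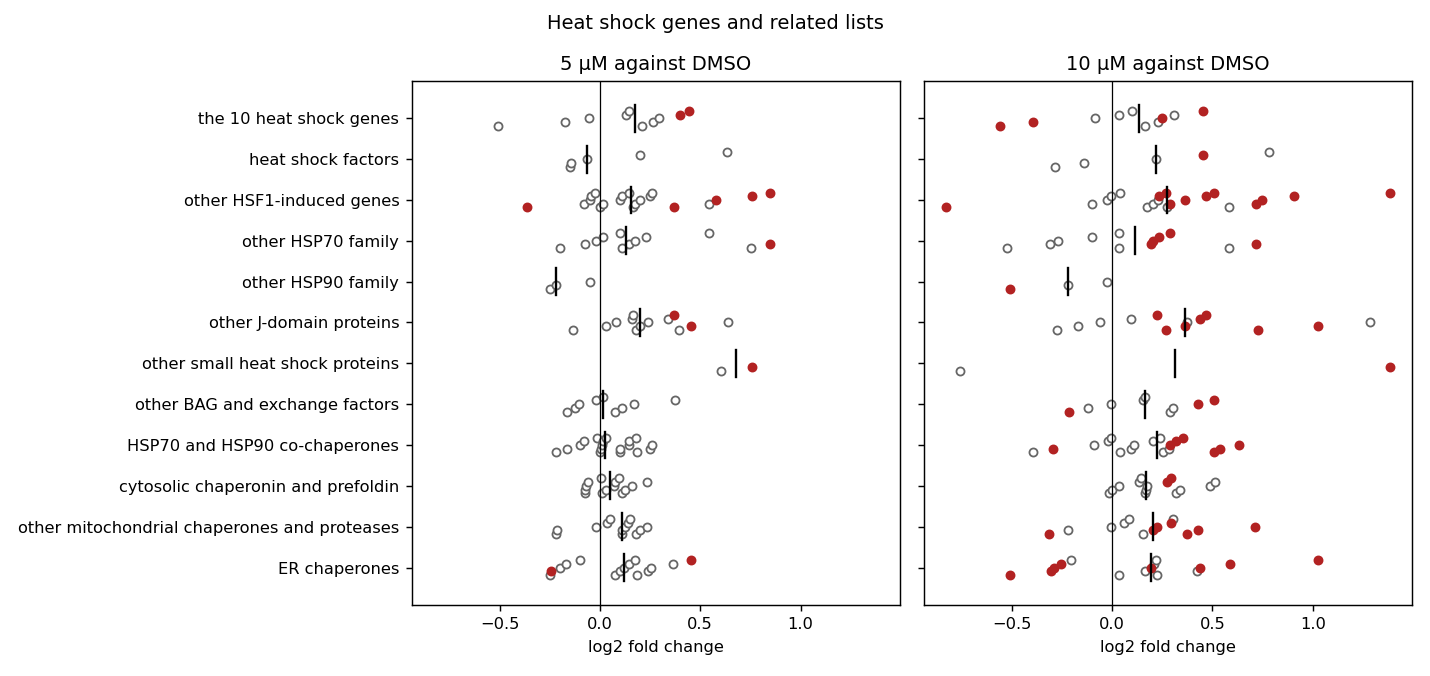
Log2 fold change (x axis) of each tested gene of the heat shock members and 11 related lists at 5 µM and at 10 µM against DMSO, with filled red points for called genes and a black bar for the median of each list. The members' medians are 0.18 and 0.13 (0.17 and 0.012 without 10 µM replicate 1), and HSPB8 at 1.39 and SERPINH1 at -0.83 are the extremes among called genes at 10 µM.

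The genes whose log2 CPM followed the summed HSPA1A and HSPA1B most closely over the 9 libraries were, out of 13676 that averaged 1 CPM or more, FRMD8 (Pearson r = 0.980), ZDHHC11 (0.954), HSPA8 (0.949), THNSL2 (0.948) and HLA-DRA (0.929). The libraries share their treatment groups and depth, so these values describe likeness only. FRMD8 was at means of 68.4, 85.4 and 77.6 CPM in DMSO, 5 µM and 10 µM, and HLA-DRA, an MHC class II chain, at 72.6, 119 and 103 CPM. All 5 genes were highest on average at 5 µM, as the HSP70 pair was, which choosing them by likeness to the pair made likely.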

How the data were processed

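RNA of 9 A375 libraries was profiled. The expected counts were deposited by the authors in 1 table with a row for each gene symbol, without scaling to depth. The submitters' processing notes name Bowtie2 2.1.0, RSEM 1.2.15 and the build hg38, which is GRCh38. The annotation, strand setting and filters were not stated in any source used. The labels describe oligo-dT beads and strand-specific libraries, the series design ribosomal RNA depletion, and which was used is not settled. Non-whole numbers made up 10.6% to 13.8% of each library, and all values were rounded.

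Counts were tested in R 4.3.3 with edgeR 4.0.16 (TMM factors 0.957 to 1.029, filterByExpr, quasi-likelihood F test on all 9 libraries, Benjamini-Hochberg over 16417 genes). A gene was called at an adjusted p under 0.05. Standard errors were derived from the log2 fold change and F, as the ratio of the former to the root of the latter. DESeq2 1.42.0, limma-voom (limma 3.58.1), other scalings and filters, a replicate block and fits without single libraries were alternatives. An exact permutation of 3 against 3 libraries cannot go below p = 0.10, so the test borrows the spread across genes. The scripts were tested on simulated data.

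The members and lists were chosen with earlier results of these data known, the lists from general knowledge. Named genes were the members, up to 3 per list and direction called at 10 µM with the largest change, HSF1, HSF2, HSPA6 and the 5 genes most like the HSP70 pair. Of the related lists, HSF5, HSPA7, CRYAB, DNAJB3, DNAJB8, DNAJB13, HSPB2, HSPB3, HSPB7, HSPB9 and CRYAA were too low to be tested. Gene positions, transcript lengths and overlaps are from GENCODE release 29, and promoters from RefSeq on GRCh38.p14.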

Additional observations from a re-analysis of the deposited data

How the results depend on the processing

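The number of members called was 2 at 5 µM, 4 at 10 µM and 2 between the doses in the fit of all libraries. A required fold of 1.5 made it 0 in all 3 comparisons. With only the libraries of both groups compared it was 9, 2 and 0, where 2 had an unadjusted p under 0.05 in the last. DESeq2 called 5 at 5 µM. Leaving out 1 library at a time gave 1 to 9, 2 to 7 and 0 to 7, with the highest counts without 10 µM replicate 1. The other scalings and filters and limma-voom stayed within 1.5 times in total. Over all genes the calls at 5 µM moved too, from 722 higher and 954 lower with all libraries. They were 2770 and 2951 without 10 µM replicate 1, and 263 and 410 without DMSO replicate 2. With only the DMSO and 5 µM libraries they were 3051 and 3280. Replicate numbers did not pair the libraries (correlations of same-numbered deviations from -0.049 to 0.032), and the fit with a replicate block called 2, 3 and 2 members, losing HSPH1 at 10 µM (adjusted p = 0.059). Of 564 alternative values of single members, 485 kept direction and side of the threshold, 30 lost a call, 43 gained one and 6 changed sign. The summed pair was not among these values. HSPH1 between the doses became 0.012 with upper-quartile factors. The log2 values that changed sign when a library was left out ranged between the doses from -0.086 to 0.071 for HSPH1, from -0.19 to 0.24 for HSPE1 and from -0.31 to 0.077 for HSPB1, and at 10 µM against DMSO from -0.00024 to 0.051 for DNAJB1, and each such sign change came from leaving out a 10 µM library. The calls of HSPA8 at 5 µM and of HSP90AA1 and BAG3 at 10 µM held in every alternative fit at an adjusted p under 0.05. Beyond the fits that leave out libraries, the cause was not tested.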
